A study of Homo sapiens with 21 samples.

Results

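Splicing factors are the proteins that find, mark and join exons, and 52 genes for them were followed here through every library of a study of K562 cells, an established human erythroleukaemia cell line. The members are a list of symbols: 12 SR proteins, 14 hnRNP proteins, 8 proteins of the branch point and 3′ splice site, 5 of the U1 particle and the 5′ splice site, 3 Sm and tri-snRNP proteins, 7 SR-related coactivators, kinases and RBM proteins, and 3 tissue regulators and helicases. All 52 were matched to the 61541 genes of the gene count table and to the 57300 gene names of the exon bin files. The 21 libraries form 7 groups of 3. In the eRNA experiments, enhancer RNAs called 34kn and 34kp, transcribed from an enhancer 34 kb upstream of MYB, were each overexpressed and set against controls of their own (labels 34kn and 34knContol, 34kp and 34kpContol), and the counts are of exon bins. In the MYB experiment, libraries labelled MYB overexpression and NMYB overexpression were set against empty vector, and the counts are of genes. The design concerns the full-length MYB protein and a form that lacks part of the N terminus. All groups were K562 cells in the same RPMI medium with fetal bovine serum. The vectors, the time after their delivery and whether clones or pools of cells were used are not given in the sources used here.

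Splicing starts when the U1 particle binds the 5′ splice site and SF1 and the U2AF proteins bind the branch point and the 3′ splice site, after which the U2 particle and the U4/U6.U5 tri-snRNP enter. SR proteins bind exonic enhancers and mostly favour the use of nearby sites, while hnRNP proteins bind introns and exons and often oppose it. Many SR and hnRNP genes control their own level through exons whose inclusion sends the mRNA to nonsense-mediated decay.

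The 12 bin libraries held from 36563252 to 41243796 counts and the 9 libraries of the gene table from 16552237 to 24462819. Levels are given as CPM, the count relative to a library size scaled by TMM. Of the members, 39 had a name of their own in the bin files and 13 shared one with an overlapping gene, so for these the bin values hold the partner as well. Among the 13 were LUC7L2 with FMC1, SRSF6 with L3MBTL1 and RBM5 with RBM6. The others were SRSF1, SRSF2, SRSF4, HNRNPA3, HNRNPK, HNRNPL, PTBP1, LUC7L3, CLK4 and DDX5. All 18 genes of an erythroid and K562 list averaged at least 1 CPM in both kinds of file. In the gene counts 3 of 8 lymphoid, 3 of 8 granulocytic and monocytic, 2 of 7 fibroblast and 4 of 7 epithelial markers also did, and in the bin files 3 of 8, 2 of 8, 2 of 7 and 4 of 7. MS4A1, ELANE, LUM and KRT5, which belong to these 4 lists in that order, were at 0 in every library. Among the erythroid genes, HBG1, HBG2 and HBE1 share a name in the bin files and so have the same value there. Counts and sums of that list in the eRNA experiments hold this value once per gene. The MYB transcript stood at 230.3, 227.7 and 221.7 CPM in the libraries labelled MYB, at 214.9, 201.6 and 216.8 CPM in those labelled NMYB and at 216.1, 210.0 and 218.6 CPM with empty vector. The label MYB overexpression therefore goes with at most a small gain of that transcript, and with NMYB the values overlap those of empty vector. The labels do not say that replicates were separate cultures, so every p-value measures the spread between these libraries, which may be technical. In bulk RNA, a change in the number of cells of a kind and a change of RNA per cell cannot be told apart.

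The 34kn control of replicate 1 stood apart in its coverage along genes. Each gene's bins were numbered from its 5′ end and cut into 4 equal parts, and the mean share of counts in the part nearest the 5′ end was taken over the 52 splicing factors. It was 18.5%, 18.7% and 18.6% in the 34kn overexpression libraries, against 22.1%, 18.9% and 19.7% in the 34kn controls. It was 19.1%, 17.9% and 16.8% in the 34kp overexpression libraries, against 17.2%, 18.0% and 18.2% in the 34kp controls. The 34kn groups did not overlap, while the 34kp groups did. Over all genes with enough counts the order of the libraries was alike, with 13.4% to 13.6% in 34kn overexpression and 16.5%, 13.9% and 14.5% in the 34kn controls. The 34kn levels nearest the threshold and the bins called with 34kn are therefore given with and without that control below. Among all counted items, reads of low alignment quality made up 4.46% to 4.64% in the 34kp overexpression libraries and 7.14% to 8.35% in their controls, so this share moved with the group, and its part in the 34kp results was not tested.

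**Figure D1:**
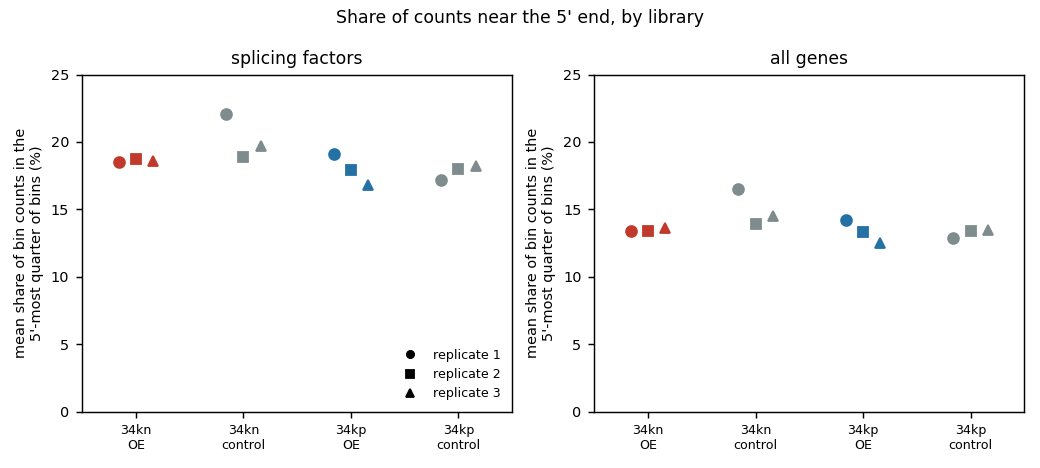
Mean share of a gene's bin counts that fell in the part of its bins nearest the 5′ end (y axis, percent) in each of the 12 eRNA libraries (x axis, by group; marker shape gives the replicate), for the splicing factors on the left and all genes on the right. The 34kn control of replicate 1 lies above all other libraries in both panels, at 22.1% and 16.5%.

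Among the members, HNRNPA1, which packages nascent RNA and often blocks splice sites, had the highest level per length of exon in the empty-vector libraries, at 551.3 CPM per kb, followed by its relative HNRNPA2B1 at 220.6 CPM per kb. HNRNPA1 has many processed copies in the genome, so its count is uncertain. At the low end, CLK4, a kinase of SR proteins, stood at 1.82 CPM per kb and U2AF1, which reads the AG of the 3′ splice site, at 0.989 CPM per kb. U2AF1 has a near-identical copy in GRCh38, and reads that fit both may not have been counted, so this low level is uncertain.

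With MYB overexpression, the question was which genes respond to the full-length factor. Of the 52 splicing factors, 11 were higher and 5 lower than with empty vector (edgeR quasi-likelihood test, Benjamini-Hochberg adjusted p under 0.05). Of all 15823 genes tested 22.3% were called, 9.62% higher and 12.7% lower. Here and in later comparisons of levels, members and list genes were not matched to all genes for counts. The part of depth in the shares of genes called was not tested. LUC7L2 rose most, SRSF2 and 5 hnRNP genes rose by less, and the U1 protein gene SNRPA fell. The changes were small: apart from LUC7L2 and SNRPA, no called member passed a log2 fold change of 0.31 in size, and the median over the 52 was 0.03, beside 0.01 over all genes. The map of log2 fold changes shows all members in the comparisons with a control.

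**Figure D2:**
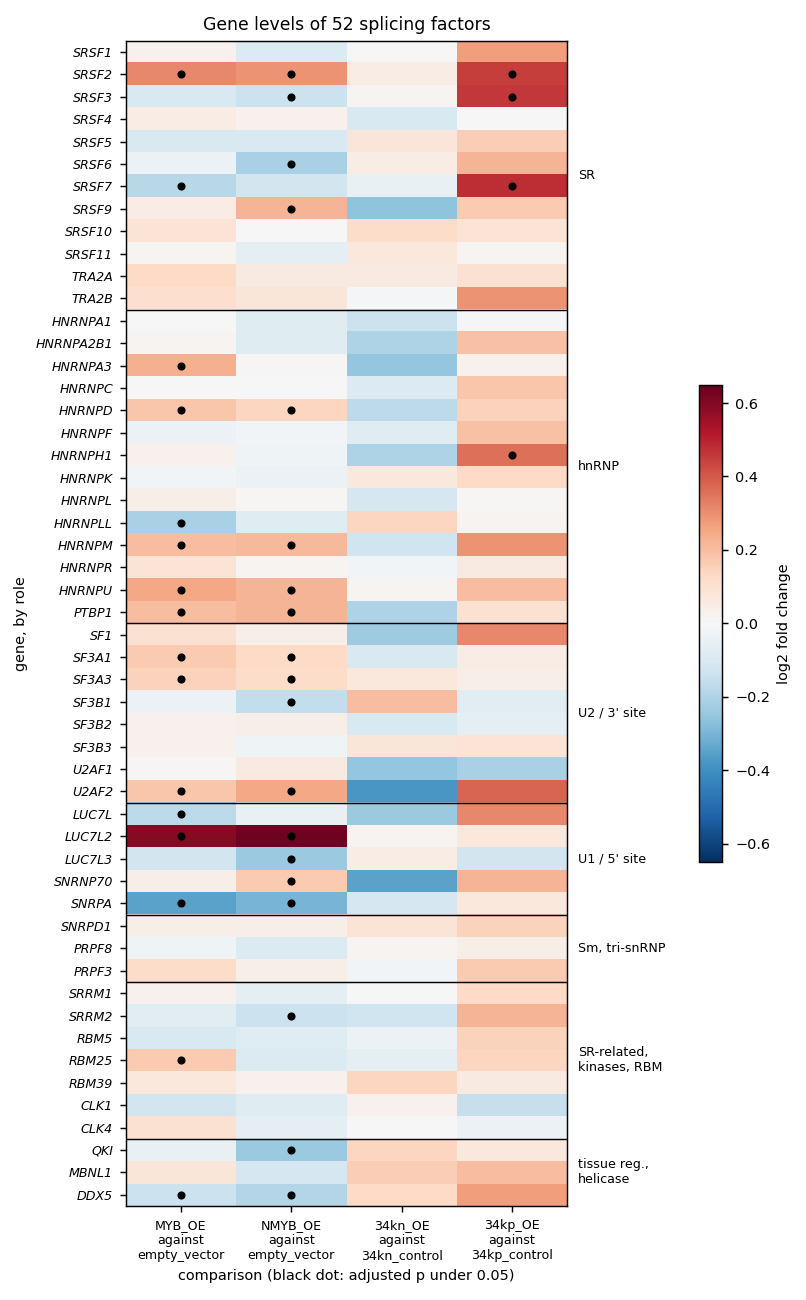
Log2 fold change of the 52 splicing factors (rows, by role) in the 4 comparisons with a control (columns); red is higher and blue lower in the overexpression group, and a black dot marks an adjusted p under 0.05. The 34kp column is red in 45 of 52 rows with 4 dots, and the 34kn column has no dot.

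The U1 particle and its partners held the largest changes in both directions. LUC7L2, a U1-associated protein that helps choose 5′ splice sites, stood at 133.9, 128.4 and 145.7 CPM with MYB and at 130.8, 154.8 and 135.7 CPM with NMYB, against 81.82, 97.94 and 91.93 CPM with empty vector. Both overexpression groups lay above empty vector without overlap, by 0.59 ± 0.0726 on the log2 scale for MYB (SE, n = 3 each; edgeR adjusted p = 1.99e-05) and 0.63 ± 0.0729 for NMYB (edgeR adjusted p = 1.06e-05). The read-through gene FMC1-LUC7L2 had at most 2 counts in any of the 9 libraries, so hardly any reads were assigned to it. SNRPA, a protein of the U1 particle that binds the U1 RNA, stood at 95.83, 104.8 and 93.66 CPM with MYB and at 102.2, 103.1 and 98.88 CPM with NMYB, against 117.2, 128.9 and 129.6 CPM with empty vector. All 6 overexpression libraries lay below the 3 of empty vector, with log2 fold changes of -0.35 ± 0.0549 for MYB (edgeR adjusted p = 1.16e-04) and -0.30 ± 0.0552 for NMYB (edgeR adjusted p = 5.04e-04). LUC7L, the closest relative of LUC7L2, moved the other way with MYB, at 63.86, 64.03 and 61.33 CPM against 71.31, 70.16 and 71.02 CPM with empty vector (log2 fold change -0.17, edgeR adjusted p = 0.0201). LUC7L3, a further member of that family, stood at 265.8, 224.4 and 259.2 CPM with NMYB against 313.1, 274.5 and 297.7 CPM with empty vector, and fell by 0.24 on the log2 scale (edgeR adjusted p = 0.00562). SNRNP70, the U1-70K protein, was higher with NMYB, by 0.17 (edgeR adjusted p = 0.0415).

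MYB binds DNA at a core written AACNG, so the promoter of the member that rose most is shown with that core, on either strand, in capitals. The stretch ends 49 bases before a start of LUC7L2 listed by RefSeq and overlaps no exon of GENCODE 29. It comes from the RefSeq promoter table of GRCh38.p14, chr7:139359696-139359845, plus strand.
LUC7L2: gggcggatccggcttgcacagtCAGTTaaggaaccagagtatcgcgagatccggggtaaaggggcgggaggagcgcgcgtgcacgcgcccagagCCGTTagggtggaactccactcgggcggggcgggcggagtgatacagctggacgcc
The core occurred 2 times in these 150 bases. It is a short motif and common: of the 35116 promoters in the table, each of 300 bases, 77.2% held it, as did 46 of the 62 promoters of the 44 members found there (74.2%). A match is a description of the letters and not a binding site.

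Of the 12 SR genes, 1 rose and 1 fell with MYB (16.7%, beside 22.3% of all genes). With NMYB, 2 rose and 2 fell (33.3%, beside 24.9% of all genes). SRSF2, an SR protein mutated in myeloid disease, stood at 347.3, 351.6 and 367.0 CPM with MYB and at 360.1, 349.4 and 346.3 CPM with NMYB, against 266.1, 299.9 and 294.9 CPM with empty vector. It rose in both, by 0.31 ± 0.0467 with MYB (edgeR adjusted p = 8.56e-05) and by 0.29 ± 0.0468 with NMYB (edgeR adjusted p = 1.49e-04), and the groups did not overlap. MFSD11, the neighbour that starts on the other strand, had log2 fold changes of 0.04 and 0.01 in these comparisons. SRSF7, an SR protein that also takes part in mRNA export, stood at 276.7, 259.4 and 265.1 CPM with MYB against 309.2, 295.5 and 303.2 CPM with empty vector, a fall of 0.18 on the log2 scale (edgeR adjusted p = 0.00481) that did not pass without empty-vector replicate 1 (edgeR adjusted p = 0.0556) or MYB replicate 2 (edgeR adjusted p = 0.0568). SRSF9, a small SR protein with a short RS domain, stood at 109.6, 127.7 and 107.2 CPM with NMYB against 96.43, 100.5 and 99.5 CPM with empty vector and rose by 0.22 (edgeR adjusted p = 0.0117). SRSF6 and SRSF3 fell with NMYB, by 0.21 and 0.14 on the log2 scale.

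Of the 14 hnRNP genes, 5 rose and 1 fell with MYB (42.9%, beside 22.3% of all genes), and 4 rose with NMYB (28.6%, beside 24.9%). HNRNPU, a nuclear scaffold protein that binds chromatin-associated RNA, stood at 1410, 1431 and 1476 CPM with MYB and at 1441, 1381 and 1405 CPM with NMYB, against 1188, 1210 and 1241 CPM with empty vector. It rose without overlap in both, by 0.25 (edgeR adjusted p = 5.84e-05) and 0.22 (edgeR adjusted p = 2.32e-04). PTBP1, the pyrimidine tract binding protein that represses exons, stood at 799.1, 838.1 and 800.4 CPM with MYB and at 815.1, 855.3 and 802.1 CPM with NMYB, against 642.3, 742.4 and 743.2 CPM with empty vector, with log2 fold changes of 0.20 and 0.22. HNRNPM, which binds GU-rich RNA, stood at 578.5, 581.2 and 576.7 CPM with MYB and at 581.6, 601.7 and 572.0 CPM with NMYB, against 450.1, 536.6 and 525.9 CPM with empty vector, with log2 fold changes of 0.20 and 0.21. In both genes empty-vector replicate 1 was the lowest library and the groups still did not overlap. HNRNPD, an AU-rich element binding protein, rose with MYB by 0.18, at 750.9, 750.7 and 758.7 CPM against 638.8, 660.2 and 700.1 CPM with empty vector, and with NMYB by 0.14. HNRNPLL, a regulator of exon choice in lymphocytes, was the 1 member of the group that fell with MYB, at 72.16, 70.02 and 77.6 CPM against 88.27, 79.67 and 86.28 CPM with empty vector (log2 fold change -0.21, edgeR adjusted p = 0.0118). That call did not hold without empty-vector replicate 1 or 3 or MYB replicate 1 or 2, with edgeR adjusted p-values of 0.103, 0.0736, 0.0581 and 0.0954.

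Of the 8 proteins of the branch point and 3′ splice site, 3 rose with MYB (37.5%, beside 22.3% of all genes). With NMYB, 3 rose and 1 fell (50%, beside 24.9% of all genes). U2AF2, the large subunit of U2AF that binds the pyrimidine tract, stood at 416.0, 433.6 and 406.1 CPM with MYB and at 429.6, 465.9 and 421.0 CPM with NMYB, against 342.3, 385.6 and 380.2 CPM with empty vector. It rose by 0.18 with MYB (edgeR adjusted p = 0.014) and by 0.25 with NMYB (edgeR adjusted p = 0.00127). SF3A1 and SF3A3, subunits of the SF3A complex of the U2 particle, rose by 0.17 and 0.15 with MYB and by 0.13 and 0.12 with NMYB. SF3B1, the branch point clamp often mutated in myelodysplasia, fell by 0.16 with NMYB (edgeR adjusted p = 0.0125). None of SNRPD1, PRPF8 and PRPF3, the Sm and tri-snRNP members, passed in either comparison, and 1 of the 3 had an unadjusted p under 0.05 in each, PRPF3 with MYB and PRPF8 with NMYB, where 34.1% and 36.1% of all genes did.

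Among the remaining members, RBM25 rose by 0.17 with MYB, and SRRM2, a large SR-related protein of the catalytic spliceosome, fell by 0.14 with NMYB. DDX5, an RNA helicase and transcriptional cofactor, fell with both, by 0.14 and 0.19. QKI, a STAR-family regulator that binds introns next to exons, stood at 220.0, 193.9 and 219.4 CPM with NMYB against 258.2, 239.2 and 253.2 CPM with empty vector, a fall of 0.24 (edgeR adjusted p = 0.00209) without overlap. In all, 11 members were higher and 8 lower in the NMYB libraries than with empty vector, against a background of 24.9% of 15823 genes called, 12.6% higher and 12.4% lower, and the median of the 52 was -0.03. Without empty-vector replicate 1, 12 members were called. Over all genes, leaving out 1 library at a time gave 2711 to 3900 calls, against 3945 with every library kept. The MYB and NMYB comparisons share their empty-vector libraries, so their likeness is not independent.

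**Figure D3:**
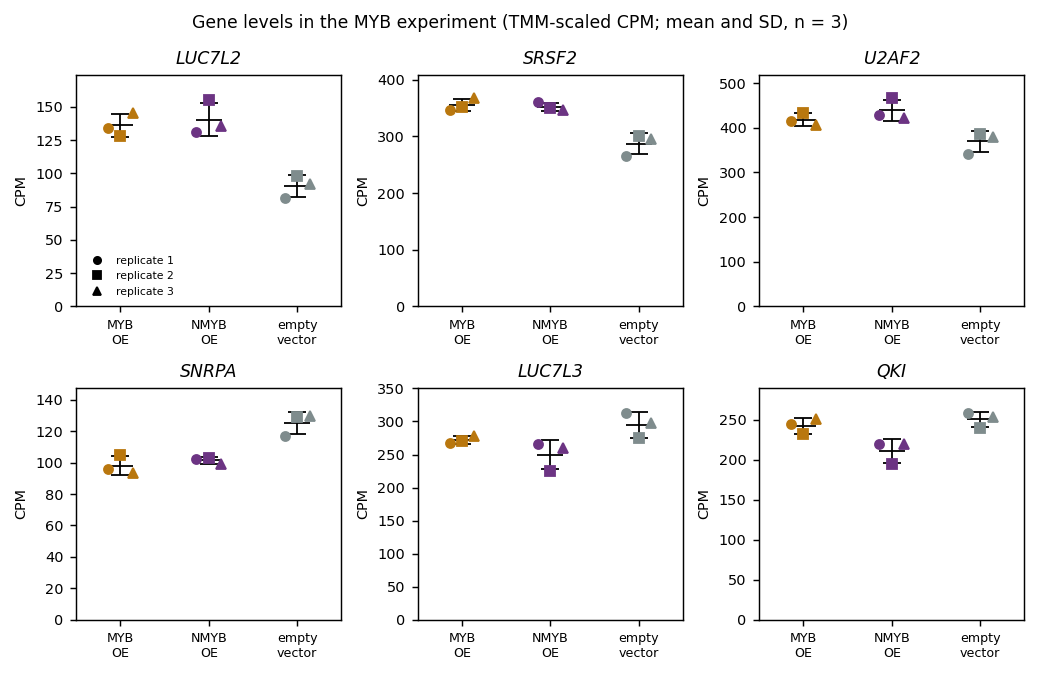
CPM (y axis, from 0) of 6 splicing factors in each library of the MYB experiment (x axis, by group); points are replicates, bars the mean and SD of 3. LUC7L2, SRSF2 and U2AF2 lie higher and SNRPA lower in both overexpression groups than with empty vector, and QKI is lower with NMYB, at 193.9 to 220.0 CPM.

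Set directly against MYB, NMYB differed in 2 of the 52 members, both lower, where 1.14% of all genes were called and 0.626% were lower. RBM25, an RNA-binding protein with RE/RD and PWI domains that acts on 5′ splice site choice, stood at 188.1, 166.0 and 192.2 CPM with NMYB against 214.6, 216.5 and 222.3 CPM with MYB, with a log2 fold change of -0.26 ± 0.0524 (edgeR adjusted p = 0.0285). HNRNPA3, a relative of HNRNPA1, stood at 923.5, 828.8 and 880.7 CPM with NMYB against 1044, 1011 and 1011 CPM with MYB and 868.1, 857.2 and 896.2 CPM with empty vector, with a log2 fold change of -0.22 ± 0.0411 (edgeR adjusted p = 0.0184). Its MYB level lay 0.23 above empty vector on the log2 scale (edgeR adjusted p = 5.31e-04). The NMYB and MYB libraries did not overlap in either gene. Without MYB replicate 1 or 3 neither passed, with edgeR adjusted p-values of 0.142 and 0.122 for RBM25 and 0.153 and 0.0618 for HNRNPA3, and RBM25 also missed it without empty-vector replicate 3 (edgeR adjusted p = 0.0503).

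Of 159 tested genes in 7 further lists of spliceosome proteins and regulators, 29 rose and 4 fell with MYB, and 38 rose and 17 fell with NMYB. That is 20.8% with MYB, beside 22.3% of all genes, and 34.6% with NMYB, beside 24.9%. Of the 26 other U1, U2 and Sm proteins, 6 rose and 1 fell with MYB (26.9%), and 10 rose and 4 fell with NMYB (53.8%). Of the 42 other tri-snRNP, Prp19 and step factors, 8 rose and none fell with MYB (19%), and 13 rose and 1 fell with NMYB (33.3%). The largest called changes with MYB were in HNRNPA0 (0.44) and LSM4, an LSm ring protein of U6 (0.39), on the higher side, and in MBNL3, a muscleblind protein (-0.82), and CLK3, an SR kinase (-0.22), on the lower. With NMYB they were in PCBP1, a poly(C) binding protein (0.84), LSM7 (0.53), MBNL3 (-1.27) and NKTR, a cyclophilin with an RS domain (-0.23). Between NMYB and MYB, 5 of the 159 were called (3.14%, beside 1.14% of all genes), among them the Sm proteins SNRPD2 (0.19) and SNRPD3 (-0.24) and the kinase CDK12 (-0.22).

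Marker lists moved in the same libraries. Of the 18 erythroid and K562 genes, 1 was higher and 7 lower with MYB (44.4%, beside 22.3% of all genes). Their log2 fold changes with MYB ran from -0.71 to 0.43, 6 above 0 and 12 below. With NMYB, 3 were higher and 4 lower (38.9%, beside 24.9%). There the log2 fold changes ran from -0.58 to 0.66, 10 above 0 and 8 below. The summed level of that list ran from 2720 to 2813 CPM with MYB and from 2880 to 2945 CPM with NMYB, against 2980 to 3223 CPM with empty vector. Of the 4 tested epithelial markers, 3 were lower with MYB and 2 with NMYB, and the summed level of the 7 was 825 to 895 CPM with MYB and 938 to 1070 CPM with NMYB, against 1286 to 1342 CPM with empty vector. In the lymphoid and fibroblast lists 1 gene each was lower, and in the granulocytic and monocytic list 1 was higher, with MYB and with NMYB. The part of these markers in the members' counts was not tested.

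With 34kp overexpression, 4 of the 52 members rose and none fell, where 2.35% of all 16662 genes were called and 0.63% were called higher. Of these, 3 were SR genes and the fourth was HNRNPH1. SRSF7 stood at 295.8, 287.8 and 316.1 CPM with 34kp against 221.1, 198.7 and 226.4 CPM in the 34kp controls, a log2 fold change of 0.48 ± 0.0764 (SE, n = 3 each; edgeR adjusted p = 0.00938). SRSF3, the smallest SR protein, stood at 498.3, 507.8 and 564.4 CPM with 34kp against 391.6, 363.0 and 389.0 CPM in the controls, a log2 fold change of 0.46 ± 0.072 (edgeR adjusted p = 0.00895). SRSF2 stood at 516.0, 532.5 and 567.6 CPM with 34kp against 415.8, 379.1 and 390.5 CPM in the controls, a log2 fold change of 0.45 ± 0.069 (edgeR adjusted p = 0.00825). The groups were separate in all 3 SR genes, each about a 1.36 to 1.39-fold rise. HNRNPH1, which binds runs of G, stood at 941.0, 884.0 and 800.0 CPM with 34kp against 652.9, 643.3 and 742.7 CPM in the controls, a log2 fold change of 0.36 ± 0.0809 (edgeR adjusted p = 0.0423). The HNRNPH1 groups were separate too, with the control of replicate 3 nearest to the overexpression libraries. None of the 4 calls held without 34kp control replicate 2 or without 34kp replicate 2: the edgeR adjusted p-values then ran from 0.0998 to 0.259 and from 0.0575 to 0.17, with log2 fold changes of 0.33 to 0.52. HNRNPH1 also missed the threshold without control replicate 1 (0.152) or 3 (0.0585) and with library sizes in place of TMM (edgeR adjusted p = 0.0562). Without 34kp replicate 3 the call count was 13 members, and without replicate 1 it was 7.

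The promoter of SRSF3 is shown with the same AACNG core, on either strand, in capitals, as a member that rose with 34kp. It runs to 10 bases before the listed start, chr6:36594203-36594352 of GRCh38.p14 on the plus strand, from the RefSeq promoter table, and overlaps no exon of GENCODE 29.
SRSF3: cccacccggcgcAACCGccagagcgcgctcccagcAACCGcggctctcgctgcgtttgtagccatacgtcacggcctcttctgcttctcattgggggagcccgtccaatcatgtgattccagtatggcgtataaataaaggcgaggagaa
The core occurred 2 times in these 150 bases, as in the LUC7L2 stretch above.

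Over all 52 members the log2 fold change with 34kp was above 0 in 45, with a median of 0.14 beside -0.01 over all genes. In 19 members, the 4 called ones among them, every 34kp library lay above every control, as in 10.3% of all genes tested. In none did every 34kp library lie below every control, as in 13.2% of all genes. All 12 SR genes were above or at 0, with a median of 0.20, and 7 of them had an unadjusted p under 0.05, as did 17.9% of all genes. SRSF1, the founding SR protein, stood at 444.6, 433.3 and 438.6 CPM with 34kp against 358.1, 361.6 and 375.4 CPM in the controls (log2 fold change 0.27, edgeR adjusted p = 0.0519). TRA2B, which binds GAA-rich enhancers, stood at 287.9, 281.6 and 303.5 CPM with 34kp against 237.3, 229.2 and 249.1 CPM in the controls (log2 fold change 0.29, edgeR adjusted p = 0.057). In both genes the groups were separate and the p narrowly missed the threshold. Of the 159 genes of the further lists, 1 rose and 1 fell (1.26% called, beside 2.35% of all genes): HNRNPA0, an hnRNP of the A and B type, with a log2 fold change of 0.46, and CELF2, a regulator of exon inclusion in blood and brain, with -0.60. Of the 18 erythroid and K562 genes 2 were lower, and so was 1 fibroblast marker. The summed erythroid level was 23160 to 24440 CPM with 34kp, against 21410 to 22990 CPM in the 34kp controls. It repeats the value shared by HBG1, HBG2 and HBE1. The part of these markers in the members' counts was not tested.

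**Figure D4:**
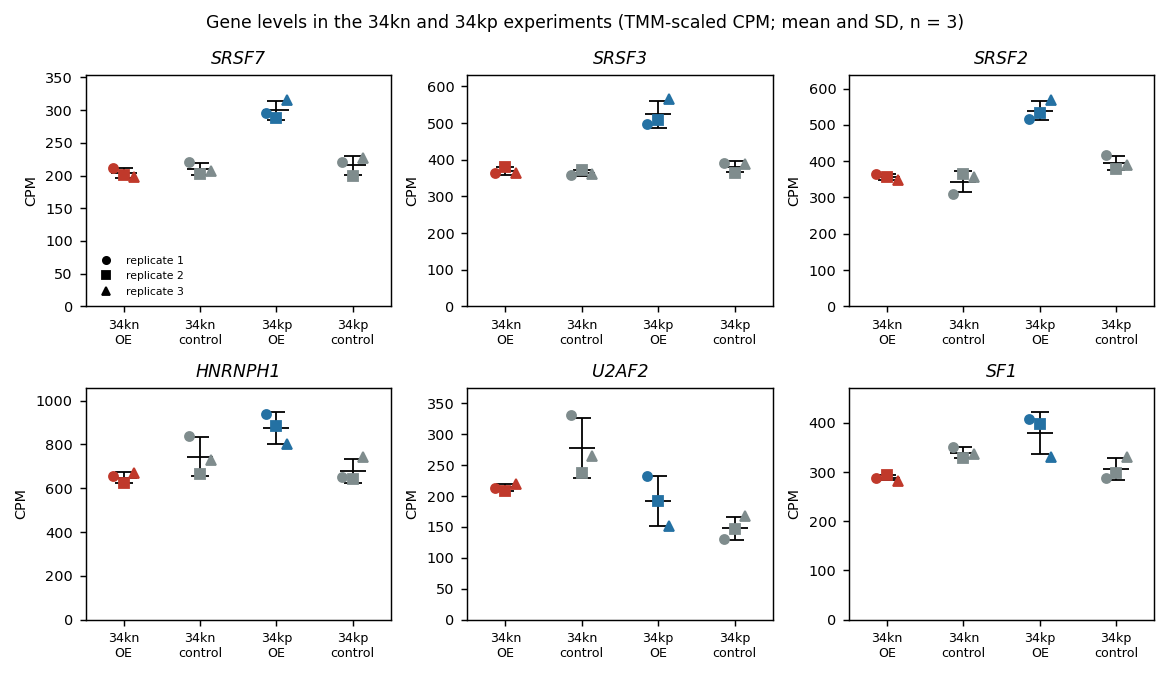
CPM (y axis, from 0) of 6 splicing factors in each library of the 34kn and 34kp experiments (x axis, by group); points are replicates, bars the mean and SD of 3. SRSF7, SRSF3 and SRSF2 are higher with 34kp than in its controls and overlap between the 34kn groups, while U2AF2 lies at 208.4 to 220.0 CPM with 34kn and 236.9 to 331.0 CPM in its controls.

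With 34kn overexpression, none of the 52 members and none of the 16116 genes passed in edgeR (0% called), with 12 members and 3759 genes, or 23.3%, at an unadjusted p under 0.05. DESeq2 called 952 genes, 3 of them members. U2AF2 had the largest log2 fold change, -0.38 ± 0.0978 (edgeR adjusted p = 0.0769), at 213.9, 208.4 and 220.0 CPM with 34kn against 331.0, 236.9 and 265.5 CPM in the 34kn controls. SF1, which first recognises the branch point, stood at 288.8, 294.3 and 282.7 CPM with 34kn against 351.7, 328.8 and 337.1 CPM in the controls (log2 fold change -0.23, edgeR adjusted p = 0.0715). LUC7L stood at 59.58, 62.22 and 60.55 CPM with 34kn against 75.13, 68.92 and 70.82 CPM in the controls (log2 fold change -0.24, edgeR adjusted p = 0.0913). In these 3 genes the groups were separate and control replicate 1 was the highest library. Without that control the log2 fold changes were -0.23 for U2AF2 (edgeR adjusted p = 0.0356), -0.20 for SF1 (edgeR adjusted p = 0.0266) and -0.20 for LUC7L (edgeR adjusted p = 0.106), so U2AF2 and SF1 then passed with smaller differences. SNRNP70 (log2 fold change -0.35, edgeR adjusted p = 0.0906) and PTBP1 (-0.20, edgeR adjusted p = 0.0913) also had separate groups and lower levels with 34kn. Without control replicate 1 they stood at -0.20 and -0.14 (edgeR adjusted p = 0.0904 and 0.0679), and neither passed. Every 34kn library lay below every control in 10 of the 52 members, as in 15.6% of all genes tested, and above every control in 3, as in 13.4% of all genes. None of the 18 erythroid and K562 genes passed, and their summed level was 29760 to 30770 CPM with 34kn, against 31660 to 34920 CPM in the 34kn controls, without overlap. That sum repeats the value shared by HBG1, HBG2 and HBE1, and its part in the members' values was not tested. The number of calls turned on single controls: without control replicate 1, 447 genes and 2 members passed, and without control replicate 2, 2982 genes and 14 members.

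The 34kn effect differed from the 34kp effect in 11 members, all in the lower direction, where 6.36% of the 17323 genes tested in the interaction were called and 3.53% were lower. The experiments have separate controls. For SRSF7, SRSF3 and SRSF2 the difference came with a 34kn change near 0: their 34kn log2 fold changes were -0.05, 0.02 and 0.05, beside 0.48, 0.46 and 0.45 for 34kp, and the differences were -0.52, -0.44 and -0.39 (edgeR adjusted p = 0.00682, 0.01 and 0.0266). SRSF7 stood at 212.2, 200.1 and 197.6 CPM with 34kn against 220.7, 202.4 and 206.2 CPM in the 34kn controls, groups that overlapped. For U2AF2, SF1 and LUC7L the sign of the estimate differed: 34kn gave -0.38, -0.23 and -0.24, and 34kp gave 0.38, 0.31 and 0.31, none of which passed on its own. U2AF2 stood at 232.2, 192.2 and 151.7 CPM with 34kp against 130.1, 146.7 and 167.2 CPM in the 34kp controls, which overlap. The differences were -0.75 for U2AF2 (edgeR adjusted p = 0.0336), -0.54 for SF1 (edgeR adjusted p = 0.0112) and -0.54 for LUC7L (edgeR adjusted p = 0.00748).

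HNRNPH1 and HNRNPM followed, with differences of -0.56 and -0.41 (edgeR adjusted p = 0.0141 for each). HNRNPH1 stood at 657.4, 621.7 and 667.3 CPM with 34kn against 838.9, 665.8 and 729.7 CPM in the 34kn controls, where 1 overexpression library lay above the lowest control. HNRNPM stood at 583.3, 573.6 and 594.2 CPM with 34kn against 673.9, 615.2 and 624.9 CPM in the 34kn controls, and at 638.3, 634.5 and 592.0 CPM with 34kp against 472.7, 514.3 and 541.5 CPM in the 34kp controls. The HNRNPM groups were separate in both experiments, in opposite directions. SRRM2, TRA2B and SRSF1 had differences of -0.35, -0.29 and -0.26. SRRM2 stood at 453.2, 462.8 and 472.1 CPM with 34kn against 495.9, 494.4 and 529.3 CPM in the 34kn controls, and at 641.4, 643.2 and 597.8 CPM with 34kp against 518.3, 540.0 and 556.1 CPM in the 34kp controls, separate both times and in opposite directions. The U2AF2 call held without 34kn control replicate 2, 34kp control replicate 3 or 34kp replicate 3 and failed without any other library, with edgeR adjusted p-values of 0.0526 to 0.0912, and the HNRNPH1 call failed without 34kp control replicate 2 (edgeR adjusted p = 0.0515). Of the 12 libraries, leaving out 9 in turn ended the TRA2B call, 7 the SRSF2 call and 4 the SRRM2 call. SRSF7, SRSF3, SF1, LUC7L and HNRNPM passed without each of the 12 libraries in turn. They were the only 5 called without 34kp control replicate 2, so SRSF1 did not pass there. The number of members called ran from 5 without 34kp control replicate 2 to 16 without 34kn control replicate 2. It was 6 or 7 without any 34kn overexpression library, 34kn control replicate 3, 34kp control replicate 1 or 34kp replicate 2. Over all genes, leaving out 1 library at a time gave 380 to 2747 calls, against 1102 with every library kept. Of the 18 erythroid and K562 genes, 3 had a higher and 4 a lower difference (38.9%, beside 6.36% of all genes). HBG1, HBG2 and HBE1 share a value here and are counted as separate genes in that share. The part of these 18 genes in the members' differences was not tested. Of the 159 further genes, 3 had a higher and 14 a lower difference (10.7%, beside 6.36% of all genes), led by CELF2 (0.76), MBNL2 (0.66), HNRNPA0 (-0.76) and SCAF1 (-0.71).

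Exon usage was tested on 2087 bins of the 52 genes in the 34kn experiment, each bin's fold change being set against that of its gene. With 34kn, 55 bins fell and 3 rose in 25 genes, that is, 2.78% of the splicing factor bins, where 0.795% of all 216197 bins were called, 0.773% lower and 0.0222% higher. By Simes' method 17 of the 52 genes passed, where 7.24% of all 11407 genes did. Bins and genes were not matched for counts in these comparisons, and the part of depth in the shares was not tested. HNRNPU held 6 of the called bins, and LUC7L, HNRNPA2B1 and HNRNPA1 held 5 each. The 3 that rose were neighbours in HNRNPA1, bins 87, 88 and 89, by 0.56, 0.60 and 0.55 on the log2 scale. HNRNPA1 bin 87 held 1.08%, 1.09% and 0.996% with 34kn, against 0.554%, 0.928% and 0.712% in the 34kn controls, without overlap. Without control replicate 1 the 3 differences were 0.38, 0.44 and 0.44 and none passed (edgeR adjusted p = 0.196, 0.0762 and 0.0689). A DEXSeq-type model in DESeq2, the kind of analysis the design text names, called none of these bins and 7 of all bins (DESeq2 adjusted p), so the calls rest on edgeR's test and on limma's, which called 38 member bins.

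HNRNPM bin 9 of 51 had the lowest p. It held 0.806%, 0.972% and 0.893% of the gene's bin counts with 34kn, against 3.45%, 0.854% and 1.56% in the 34kn controls. Control replicate 1 was far above the other libraries and control replicate 2 lay among the overexpression libraries. The log2 difference was -1.17 ± 0.188 (edgeR adjusted p = 1.40e-05), and without control replicate 1 it was -0.44 (edgeR adjusted p = 0.328). Matched by number to GENCODE 29, this bin is an exon part of 118 bases at chr19:8444994-8445111, plus strand, that is coding in part and appears in 9 transcripts.

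HNRNPLL bins 34 and 35 of 39, the sixth and the fifth from the 5′ end, fell by 1.46 and 1.43 on the log2 scale. Bin 34 held 0.626%, 0.915% and 1.3% with 34kn, against 3.7%, 1.76% and 2.51% in the 34kn controls, and bin 35 held 0.643%, 0.915% and 1.3% against 3.68%, 1.74% and 2.45%. The groups were separate, and the calls held without control replicate 1 (log2 differences -1.15 and -1.12, edgeR adjusted p = 0.0017 and 0.0028). SRSF1 bin 36 of 40, near its 5′ end, held 4.78%, 4.65% and 5.33% with 34kn, against 11.7%, 6.39% and 7.94% in the controls (log2 difference -0.82, edgeR adjusted p = 3.38e-05, and -0.54 with 0.0022 without control replicate 1). HNRNPU bin 88 of 96 held 1.85%, 1.8% and 2.11% with 34kn, against 5.11%, 2.37% and 3.08% in the controls (log2 difference -0.88, edgeR adjusted p = 3.00e-05, and -0.51 with 0.00302 without that control). QKI bin 3 of 43 held 1.47%, 1.31% and 1.54% with 34kn, against 4.44%, 1.85% and 2.8% in the controls (log2 difference -1.03, edgeR adjusted p = 5.50e-05, and -0.68 with 0.0348 without that control). The bin name of SRSF1 is shared with other genes, so its bin 36 may lie in one of them. All of these bins lie among the 9 nearest the 5′ end under their bin names. In each the order of the controls was the same, replicate 1 highest and replicate 2 lowest.

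HNRNPA2B1 bin 45 of 66 held 0.932%, 0.886% and 1.18% with 34kn, against 3.12%, 1.26% and 2.26% in the 34kn controls (log2 difference -1.20, edgeR adjusted p = 2.73e-04). It passed without control replicate 1 (log2 difference -0.83, edgeR adjusted p = 0.00302) but not without 34kn replicate 1 or 2 (edgeR adjusted p = 0.0504 and 0.0695). HNRNPL bin 77 of 82 held 0.296%, 0.249% and 0.312% with 34kn, against 1.41%, 0.337% and 0.519% in the controls (log2 difference -1.46, edgeR adjusted p = 6.60e-04). Without control replicate 1 it was -0.58 and not called (edgeR adjusted p = 0.614), nor was it without 34kn replicate 2 (edgeR adjusted p = 0.0938) or in limma (adjusted p = 0.101). HNRNPL encodes a CA-repeat binding regulator, and its bin name is shared with ECH1.

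**Figure D5:**
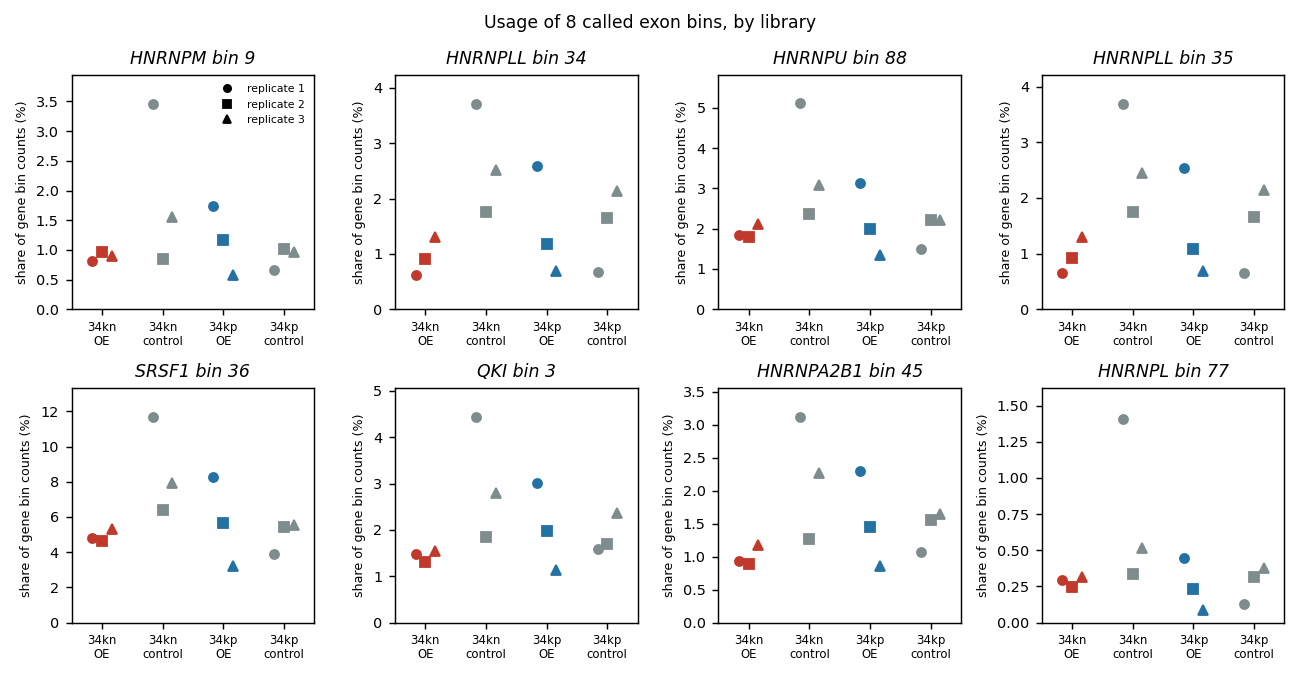
Share of the gene's bin counts held by 8 exon bins called lower with 34kn (y axis, percent, from 0) in the 12 eRNA libraries (x axis, by group; marker shape gives the replicate). The 34kn control of replicate 1 is the highest point of every panel, and among the 34kp libraries replicate 1 of the overexpression group is the highest and its replicate 3 low.

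The libraries lined up in the same way over the called bins as a whole. In all 55 bins that fell with 34kn, control replicate 1 had the highest share of the 6 libraries, and in 48 of them every 34kn library lay below every control. In 51 of the 55, 34kp replicate 1 was also the highest of the 6 libraries of the other experiment. Of the 58 called bins, 27 lay in the 5′-most part of the bins, where 5.38% of the tested splicing factor bins were called, against 1.51% to 2.22% in the other 3 parts. Over all genes, 1282 of 1719 called bins lay there, 2.59% of those tested, against 0.174% to 0.343% elsewhere. The calls moved with single libraries: without control replicate 1, 14 member bins were called, 13 of them among the 58, which all kept their sign, without control replicate 3, 34, without 34kn replicate 1, 2 or 3, 10, 10 and 16, and without control replicate 2, 229. Over all bins, 255 to 8399 were called when 1 library at a time was left out, against 1719 with every library kept. Coverage near the 5′ end thus moved with these calls, and its part in them was not tested.

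Some called bins lay inside coding exons, and these can be read as sequence. The gene annotation release of the files is not given in the sources used here. Bins rebuilt from GENCODE 29 had the files' number of bins in 16 of the 52 genes. In 14 of these, transcripts per rebuilt bin correlated with bin counts better than under any shifted numbering (Spearman correlation 0.443 to 0.838). Equal numbers of bins gained and lost between releases could go unseen, so the coordinates and sequences rest on that match. In these 14 genes, 6 of the 16 bins called with 34kn lay wholly in coding sequence. The longest of them are shown on the coding strand, from GENCODE 29 transcripts on GRCh38, with no letters in capitals because no motif was searched in them. They are HNRNPM bin 32 at chr19:8474167-8474244 and bin 35 at chr19:8483158-8483211, both plus strand, HNRNPH1 bin 16 at chr5:179616158-179616218, minus strand, and SF3A3 bin 26 at chr1:37989548-37989595, minus strand.
HNRNPM bin 32: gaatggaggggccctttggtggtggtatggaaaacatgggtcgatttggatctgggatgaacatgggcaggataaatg
HNRNPM bin 35: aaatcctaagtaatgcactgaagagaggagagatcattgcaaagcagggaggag
HNRNPH1 bin 16: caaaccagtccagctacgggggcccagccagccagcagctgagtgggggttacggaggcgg
SF3A3 bin 26: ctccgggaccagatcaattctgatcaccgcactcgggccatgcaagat
Their GC contents are 50%, 44.4%, 68.9% and 56.2%. HNRNPM bin 35 held 0.848%, 0.959% and 0.829% of the gene's bin counts with 34kn, against 2.14%, 1.16% and 1.56% in the 34kn controls, a log2 difference of -0.90 (edgeR adjusted p = 0.00275). HNRNPM bin 32 held 1.16%, 1.26% and 1.25% with 34kn, against 2.76%, 1.37% and 2.06% in the controls, a log2 difference of -0.77 (edgeR adjusted p = 0.0105). HNRNPH1 bin 16 held 0.802%, 0.82% and 0.78% with 34kn, against 1.87%, 1.04% and 1.22% in the controls, a log2 difference of -0.82 (edgeR adjusted p = 0.025). SF3A3 bin 26 held 2.62%, 2.55% and 2.73% with 34kn, against 4.98%, 3.04% and 4.1% in the controls, a log2 difference of -0.61 (edgeR adjusted p = 0.027). The groups were separate in all 4, again with control replicate 1 highest. Without that control HNRNPM bin 35 still passed (log2 difference -0.63, edgeR adjusted p = 0.0195). HNRNPM bin 32, HNRNPH1 bin 16 and SF3A3 bin 26 did not, with log2 differences of -0.49, -0.50 and -0.44 (edgeR adjusted p = 0.0987, 0.321 and 0.0805).

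Transcripts annotated as decay targets are the form through which many of these genes limit their own level. In some of the same 14 genes, such transcripts held bins found in no protein-coding transcript. Other noncoding transcripts could share these bins. SNRNP70 had 9 of them, which together held 5.79% ± 0.342 of its bin counts with 34kn (SD, n = 3), 6.23% ± 0.19 in the 34kn controls, 8.17% ± 0.382 with 34kp and 8.75% ± 1.04 in the 34kp controls. The 4 such bins of U2AF2 held 1.1% ± 0.336 with 34kn, 0.986% ± 0.335 in the 34kn controls, 1.19% ± 0.212 with 34kp and 1.5% ± 0.32 in the 34kp controls. The SNRNP70 ranges, 5.4% to 6.02% with 34kn and 6.03% to 6.41% in the 34kn controls, nearly touch, and the other ranges of these 2 genes overlap. Control replicate 1 stood at 6.25% for SNRNP70, inside its group's range, and at 0.63% for U2AF2, the lowest control, beside 1.29% and 1.03%. The 1 decay bin of SRSF9 held 0.793% ± 0.141 with 34kp and 0.522% ± 0.139 in the 34kp controls, whose ranges, 0.638% to 0.914% and 0.426% to 0.681%, overlap. No test was made on these sums, since the rebuilt numbering covered too few of the 52 genes.

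With 34kp, no bin of the 52 genes passed in edgeR among 2090 tested (81 at an unadjusted p under 0.05, as were 2.18% of all bins), nor in limma or the DEXSeq-type model in DESeq2, where 0.00862% of all 220442 bins were called in edgeR. The 3 member bins with the lowest p, chosen by that value and given as a description, all had lower shares with 34kp. SRSF1 bin 10 of 40 held 0.241%, 0.317% and 0.471% with 34kp, against 0.639%, 0.633% and 0.555% in the 34kp controls. SRRM1 bin 19 of 66, in the SR-related coactivator that bridges splice sites, held 0.246%, 0.314% and 0.368% against 0.761%, 0.618% and 0.405%. SRSF3 bin 15 of 25 held 0.355%, 0.522% and 0.49% against 0.976%, 0.617% and 0.659%. The groups were separate in all 3 bins. The log2 differences were -0.83, -0.93 and -0.73, each with an edgeR adjusted p of 1. Without 34kp replicate 3, 2 member bins passed. Over all bins, 4 to 60 passed when 1 library at a time was left out.

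The usage effects of 34kn and 34kp differed in 25 bins of 17 member genes, 24 lower and 1 higher, or 1.15% of 2179 bins, where 0.31% of all 235683 bins were called, 0.294% lower and 0.0157% higher. By Simes' method 8 of the 52 genes passed, where 2.98% of all genes did. Here too, bins and genes were not matched for counts. HNRNPM bin 9 led, with a difference of -1.57 ± 0.258 (edgeR adjusted p = 2.06e-05), and its shares were 1.74%, 1.17% and 0.571% with 34kp against 0.659%, 1.02% and 0.965% in the 34kp controls. LUC7L gave 5 of the bins. Its bin 15 of 53 held 1.19%, 1.74% and 1.37% with 34kn against 4.87%, 1.93% and 3.41% in the 34kn controls, and 4.34%, 3.62% and 1.58% with 34kp against 1.11%, 2.47% and 2.23% in the 34kp controls. The 34kn groups were separate there and the 34kp groups overlapped, with 34kp replicate 3 low. Bins 15 and 13 of LUC7L differed by -1.99 and -1.94 (edgeR adjusted p = 0.00156 and 0.00176). HNRNPD bin 31 of 37 held 1.26%, 1.35% and 1.35% with 34kn against 7.37%, 1.6% and 2.56% in the 34kn controls, and 3.37%, 1.32% and 0.849% with 34kp against 0.948%, 1.35% and 1.48% in the 34kp controls. SRSF1 bin 36 and HNRNPU bins 88 and 89 differed by -1.02, -0.99 and -1.15.

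The 1 higher bin was SRSF4 bin 26 of 30, under a bin name that this SR protein gene shares with another gene. It held 2.37%, 2.14% and 2.01% with 34kn against 1.3%, 1.04% and 1.64% in the 34kn controls, and 0.879%, 1.05% and 1.79% with 34kp against 2.56%, 1.42% and 1.77% in the 34kp controls (difference 1.37, edgeR adjusted p = 0.0175). The 34kn groups were separate and the 34kp groups overlapped. In each of the 24 lower bins, 34kn control replicate 1 was the highest 34kn library and 34kp replicate 1 the highest 34kp library. Without that 34kn control no member bin was called, without 34kp replicate 1, 1 was, and without 34kp replicate 3, 75 were. Over all bins, 65 to 2873 were called when 1 library at a time was left out, against 730 with every library kept.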

How the data were processed

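RNA of 21 K562 libraries was sequenced, prepared with a TruSeq kit per the labels' protocols. The authors deposited raw counts: exon bin counts for 12 libraries and a gene count table for 9, per the submitters' processing notes with Trimmomatic 0.93, STAR 2.7.10a, HISAT2 2.2.1 and featureCounts 2.0.1 on GRCh38. The annotation release and strand setting are not given in the sources used here. A read over several bins can count in each, so gene sums of bins are not reads. Lines that name no bin were left out: 29.5% to 32.8% of counted items lay outside bins.

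Tests of levels used R 4.3.3 and edgeR 4.0.16 (TMM, filterByExpr minimum count 10, robust quasi-likelihood F test, two-sided, Benjamini-Hochberg over all genes). The 9 gene-table libraries shared 1 fit, each eRNA experiment had its own, and the interaction used all 12. Usage was tested with edgeR's diffSpliceDGE in genes with at least 2 bins. Both tests were tried on simulated counts. These held no difference between libraries in coverage along genes, so they cannot say how the usage test handles the difference seen here. Alternatives were DESeq2 1.42.0, limma 3.58.1, other scalings and filters, each library left out and a replicate block. Named were called members, at most 10 by size per comparison, and member bins, at most 8 by p and 2 per gene. In the list genes, the 2 largest in each direction were named. U2AF2, LUC7L, SF1, SRSF1, TRA2B and other members named where they were not called, or past those limits, were chosen after their values were seen. The 52 members and all lists were chosen with earlier results of these data known.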

Additional observations from a re-analysis of the deposited data

Results flagged for a closer look

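The effects of 34kn and 34kp overexpression differed by a test of the difference itself in 11 splicing factor levels. On the log2 scale, 34kn minus 34kp, the differences were -0.75 for U2AF2, -0.56 for HNRNPH1, -0.54 for SF1, -0.54 for LUC7L, -0.52 for SRSF7, -0.44 for SRSF3, -0.41 for HNRNPM, -0.39 for SRSF2, -0.35 for SRRM2, -0.29 for TRA2B and -0.26 for SRSF1. The differences of SRSF7, SRSF3, SF1, LUC7L and HNRNPM passed without each of the 12 libraries in turn. Those of U2AF2, TRA2B, SRSF2, SRRM2, HNRNPH1 and SRSF1 each failed without at least 1 of them. By the same kind of test, exon usage differed by -1.57 in HNRNPM bin 9, -1.99 and -1.94 in LUC7L bins 15 and 13, -1.02 in SRSF1 bin 36, -0.99 and -1.15 in HNRNPU bins 88 and 89, -2.27 in HNRNPD bin 31 and 1.37 in SRSF4 bin 26. The usage differences were not called in any member bin once 34kn control replicate 1 was left out, and the cause was not tested.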

How the results depend on the processing

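No named gene or bin turned its direction under any alternative run: 644 values kept their side of the threshold, 108 no longer passed and 1 newly passed. In the 34kn experiment, usage calls fell to 7 bins, 0 member bins and 0 members in the DEXSeq-type model in DESeq2, and member bins to 38 in limma. Gene calls there were 952 (3 members) with DESeq2 and 1572 (6) with no filter, against 0. With 34kp, DESeq2 called 957 genes (10 members) and no filter 997 (10), and the usage calls over all bins were 12 in the DEXSeq-type model. Members called between NMYB and MYB were 4 with DESeq2, with library sizes only and at a minimum count of 50, and 5 of 656 genes with no filter.

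In the eRNA experiments the replicate numbers did not pair the libraries: correlations of same-numbered deviations ran from -0.527 to 0.0092. In the MYB experiment they ran from -0.0933 to 0.39. Between NMYB and MYB they were -0.0703, 0.371 and 0.296 for replicates 1, 2 and 3. Whether the numbers pair those libraries is not settled. With the replicate block, NMYB against MYB gave 1184 genes and 7 members, against 181 and 2 without it. For 34kp the block gave 71 genes, 0 members and 8 bins, and for the difference of effects 105 genes and 1 member. The 4 levels called with 34kp (SRSF7, SRSF3, SRSF2, HNRNPH1) were not called with the block. Nor was any named difference of effects on levels except SRSF7 (-0.52).

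Leaving out 1 library at a time, counts ran as follows. For 34kn usage, 255 to 8399 bins, 10 to 229 member bins and 2 to 38 members; for 34kp usage, 4 to 60 bins and 0 to 2 member bins. For the difference in usage, 65 to 2873 bins, 0 to 75 member bins and 0 to 25 members. For levels, 34kn gave 0 to 2982 genes and 0 to 14 members, 34kp 46 to 1175 and 0 to 13. Their difference gave 380 to 2747 genes and 5 to 16 members. NMYB against MYB gave 0 to 323 genes and 0 to 4 members, and NMYB against empty vector 2711 to 3900 and 12 to 18. The planned test of transcript classes was not run, since rebuilt bins matched the files' number in 30.8% of members, under the 80% set for it.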
